A study of Mus musculus with 4 samples.

Results

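The genes described here are the collagens, laminins and other genes of the basement membrane and extracellular matrix in mouse retinal organoids at day 6. They are defined by a list of gene symbols, with no measured value in the rule: every collagen chain, every laminin chain, both nidogens, fibronectin, perlecan (Hspg2), agrin, Sparc, the fibrillins Fbn1 and Fbn2, the fibulins Fbln1, Fbln2, Fbln5 and Fbln7, and the lecticans Vcan, Ncan, Bcan and Acan. This gave 71 of the 55426 rows of the deposited table. Averaged across the 4 libraries, 42 of them reached 1 FPKM and were tested, and 29 lay below that level. FPKM counts sequenced fragments per length of transcript and scales them to the size of the library, so levels of different genes can be set side by side.

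Retinal organoids are grown from pluripotent stem cells that are guided in culture towards retinal progenitors. Every library came from a line labelled as carrying an Rx:GFP reporter, a Mettl3 knockout and a Dox-inducible HA-METTL3, so no group with intact Mettl3 was compared. METTL3 is the RNA methyltransferase that makes N6-methyladenosine. Doxycycline (Dox) is the drug that should switch on the inducible copy. The untreated group had 2 libraries, and the Dox group had 2 libraries given 2 µg/ml Dox for 6 days. Both groups were grown with AGN at 0.1 µM in GMEM containing knockout serum replacement. The titles read EV and EV+Dox, a term the labels do not explain. The labels do not say whether the libraries of a group came from separate cultures or how many clones the line holds, so p-values measure only the spread between these libraries, which may be technical.

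Basement membranes are thin sheets of matrix beneath epithelia, including the neuroepithelium of the optic vesicle. Laminin trimers, each built from an alpha, a beta and a gamma chain, form one layer, and collagen IV forms another network. Nidogens and the heparan sulfate proteoglycans perlecan and agrin link or decorate the layers. In the eye this sheet becomes the inner limiting membrane on the retinal side and Bruch's membrane on the pigment epithelium side. The fibrillar collagen II and the fibril-associated collagen IX are the main collagens of the vitreous, the gel that fills the eye.

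Fitted depth was 31700000 to 34900000 fragments per library, at which 1 fragment on a transcript of 5000 nt is worth 0.00573 to 0.00631 FPKM. Mettl3 itself was listed at 40.33 and 37.98 FPKM without Dox and at 45.2 and 46.37 FPKM with it (log2 fold change 0.22, SE 0.0681, adjusted p = 0.122, limma). The gene-level value does not separate the inducible copy from the knocked-out locus. The tissue label holds unevenly against its markers: the retinal progenitor gene Rax was low without Dox (1.12 and 0.82 FPKM) and stood at 201.14 and 227.98 FPKM with it.

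Upstream sequences are shown for the genes whose contrast was widest: the laminin beta genes, of which one was 6.14-fold higher with Dox and the other was not, and Col9a1, the matrix gene with the largest fold change, which has 2 annotated starts. The downstream start gives the short form of the collagen IX alpha 1 chain that is known from the eye. Sequences are from RefSeq on GRCm38.p6, all on the plus strand, cut so that no annotated exon is included. Capitals mark the GC box GGGCGG on either strand (CCGCCC on the other), which was found in 32.7% of all 32851 promoter windows of the 250 nt upstream of a start.
Lamb1, chr12:31265043-31265233: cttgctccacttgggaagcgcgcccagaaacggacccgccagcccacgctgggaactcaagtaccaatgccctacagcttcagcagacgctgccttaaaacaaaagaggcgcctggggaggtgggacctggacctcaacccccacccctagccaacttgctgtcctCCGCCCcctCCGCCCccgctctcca
Lamb2, chr9:108479612-108479735: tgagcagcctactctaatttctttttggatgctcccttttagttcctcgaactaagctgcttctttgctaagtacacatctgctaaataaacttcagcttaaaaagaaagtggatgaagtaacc
Col9a1 upstream start, chr1:24177360-24177609: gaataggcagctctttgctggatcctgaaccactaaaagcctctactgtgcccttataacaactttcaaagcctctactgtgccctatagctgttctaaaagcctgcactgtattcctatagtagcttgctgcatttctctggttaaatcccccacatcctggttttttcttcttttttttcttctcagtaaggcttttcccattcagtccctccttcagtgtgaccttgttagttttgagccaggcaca
Col9a1 downstream start, chr1:24194953-24195186: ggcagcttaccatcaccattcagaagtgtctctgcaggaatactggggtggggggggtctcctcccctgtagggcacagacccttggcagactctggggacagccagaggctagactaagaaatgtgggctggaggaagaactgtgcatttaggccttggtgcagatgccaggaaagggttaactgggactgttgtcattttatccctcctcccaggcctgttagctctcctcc
The Lamb1 stretch held 2 GC boxes and the other 3 stretches held none. The homeodomain core TAATTA, which reads the same on both strands, had no match in these 4 stretches and occurred in 4.84% of all windows. The SOX core ACAAT, searched on both strands, had no match either and occurred in 27.7% of all windows. The stretches are 124 to 250 nt long after trimming, and the presence or absence of each motif was the same in the untrimmed windows. A match or its absence in these windows is a description of the letters only.

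Of the 42 tested matrix genes, 10 were higher and 3 lower with Dox at an adjusted p under 0.05 in limma, and 29 did not pass. That is 23.8% higher and 7.14% lower, against 4.44% and 4.87% of all 13931 tested genes, and 31.0% in either direction against 9.31%. The 10 higher genes were Lamb1, Col4a1, Col9a1, Col9a2, Col9a3, Col2a1, Col1a2, Fbn2, Fbln1 and Sparc. The 3 lower genes were Nid2, Fbln2 and Col5a2. The median log2 fold change of the tested matrix genes was 0.07, against -0.0042 over all tested genes, and 23 of the 42 had a positive value. For 30 of the 42 (71.4%) every Dox library lay on one side of both untreated libraries, against 53.4% of all tested genes. Of the 29 below the level for testing, 14 (48.3%) had groups that did not overlap, against 30.7% of the 13601 genes below it with a value above 0. Among the 29, 6 were higher (20.7%, against 14.1%) and 8 lower, while 2256 of the 13601 were lower. One of the 42, Col9a1, reached the level for testing through the Dox libraries alone. Groups are bulk samples, so a change in the share of cells of a type and a change in RNA per cell cannot be told apart.

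**Figure D1:**
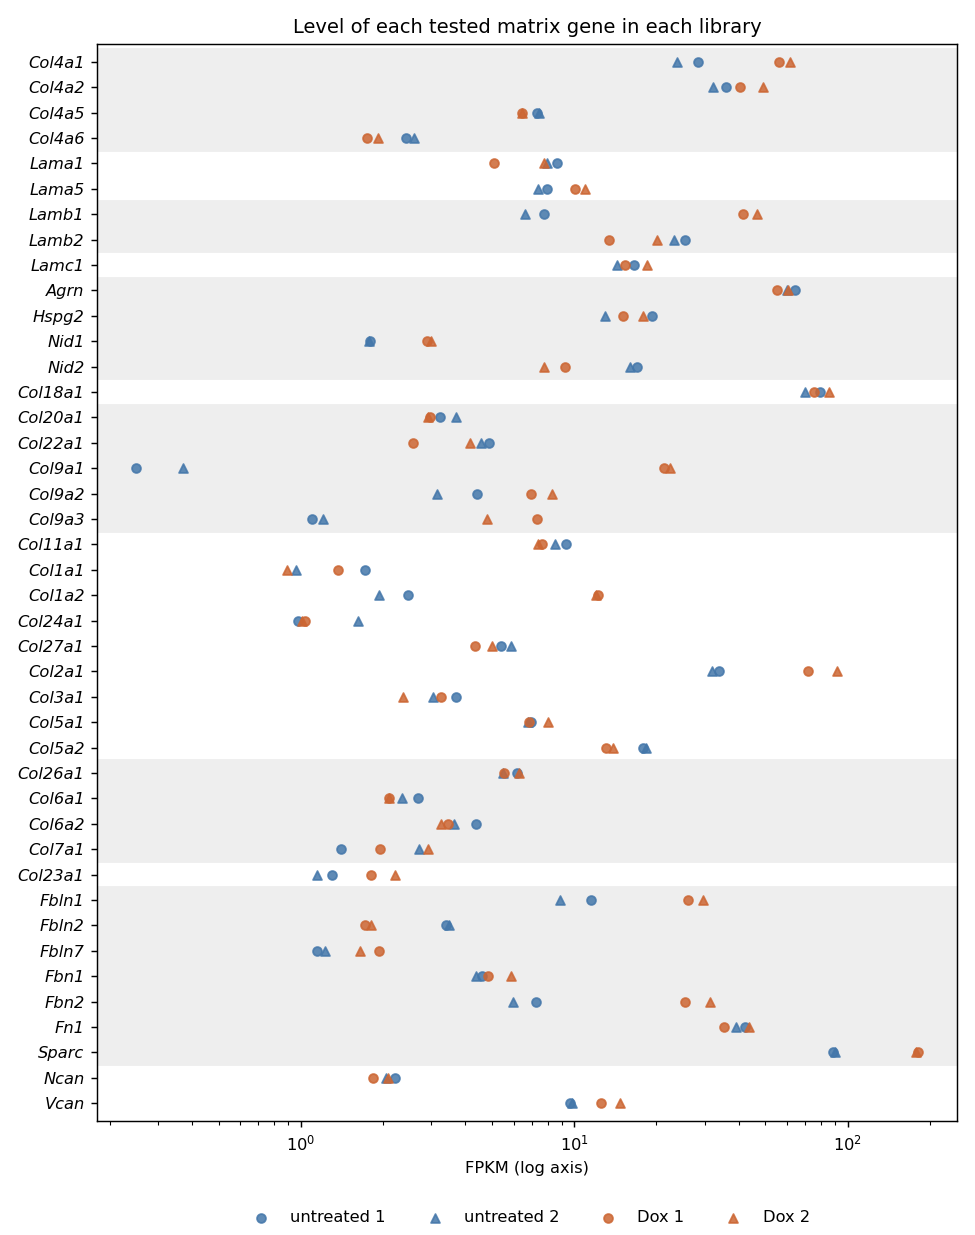
FPKM on a log axis (horizontal) of the 42 tested matrix genes (vertical, shaded bands group genes by role) in each of the 4 libraries; circles are replicate 1, triangles replicate 2, blue untreated and orange Dox. Lamb1, Col9a1, Col1a2, Col9a3 and Fbn2 show wide gaps between the colours, while Agrn, Col18a1, Fn1 and Hspg2 have overlapping groups.

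Of the laminin chain genes Lamb1 alone passed the threshold. Lamb1 (ENSMUSG00000002900, chromosome 12, 31265234 to 31329644, GRCm38) encodes the beta 1 chain of the laminins found early in embryonic basement membranes. Its level was 7.77 and 6.6 FPKM untreated, against 41.4 and 46.78 FPKM with Dox. Both Dox libraries lay far above both untreated ones, with means of 7.18 ± 0.827 and 44.1 ± 3.80 FPKM (SD, n = 2 each), a 6.14-fold difference (log2 fold change 2.46, SE 0.108, adjusted p = 1.94e-04, limma).

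Lamb2 encodes the beta 2 chain, the beta chain of many mature basement membranes and of the adult retina. It ran the other way in level, at 25.41 and 23.11 FPKM without Dox and at 13.39 and 20.14 FPKM with it. The 2 Dox libraries differed from each other, and Lamb2 did not pass the threshold (log2 fold change -0.53, SE 0.186, adjusted p = 0.160, limma). Without Dox replicate 2 it did (log2 fold change -0.81, adjusted p = 0.0442, limma), and without Dox replicate 1 the value was -0.26 (adjusted p = 0.261, limma). The third beta gene, Lamb3, a chain of the epidermal laminin, lay below the level for testing at 1.26 and 1.57 FPKM untreated and 0.17 and 0.07 FPKM with Dox.

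The order of these beta chains in level was reversed between the groups. Lamb1 made up 22.6% and 21.1% of the summed laminin beta FPKM in the untreated libraries and 75.3% and 69.8% with Dox. The Lamb2 share went from 73.8% and 73.9% to 24.4% and 30.1%. The ratio of Lamb1 to Lamb2 was 0.306 and 0.286 without Dox and 3.09 and 2.32 with it. For this ratio the exact two-sided permutation p is 0.33, the smallest that 2 libraries against 2 allow for any single value.

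No alpha or gamma chain passed the threshold. Lama5, the alpha 5 chain of broadly distributed laminins, was at 7.95 and 7.37 FPKM untreated and 10.07 and 11 FPKM with Dox, and Lama1, the alpha 1 chain of the earliest embryonic laminin, was at 8.62 and 7.95 against 5.1 and 7.74 FPKM. Neither passed (log2 fold change 0.41 and adjusted p = 0.0607 for Lama5, -0.35 and 0.329 for Lama1, limma), although their groups did not overlap. Lamc1, the gamma 1 chain shared by most laminins, was at 16.55 and 14.29 FPKM untreated and 15.39 and 18.4 FPKM with Dox, with overlapping groups (log2 fold change 0.12, adjusted p = 0.597, limma). Summed over its chains, the laminin beta class was 1.86-fold higher with Dox, while the alpha class was at 1.08-fold and the gamma class at 1.07-fold. Lama2, Lama3, Lama4 and Lamc3 stayed below 1 FPKM in all 4 libraries.

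**Figure D2:**
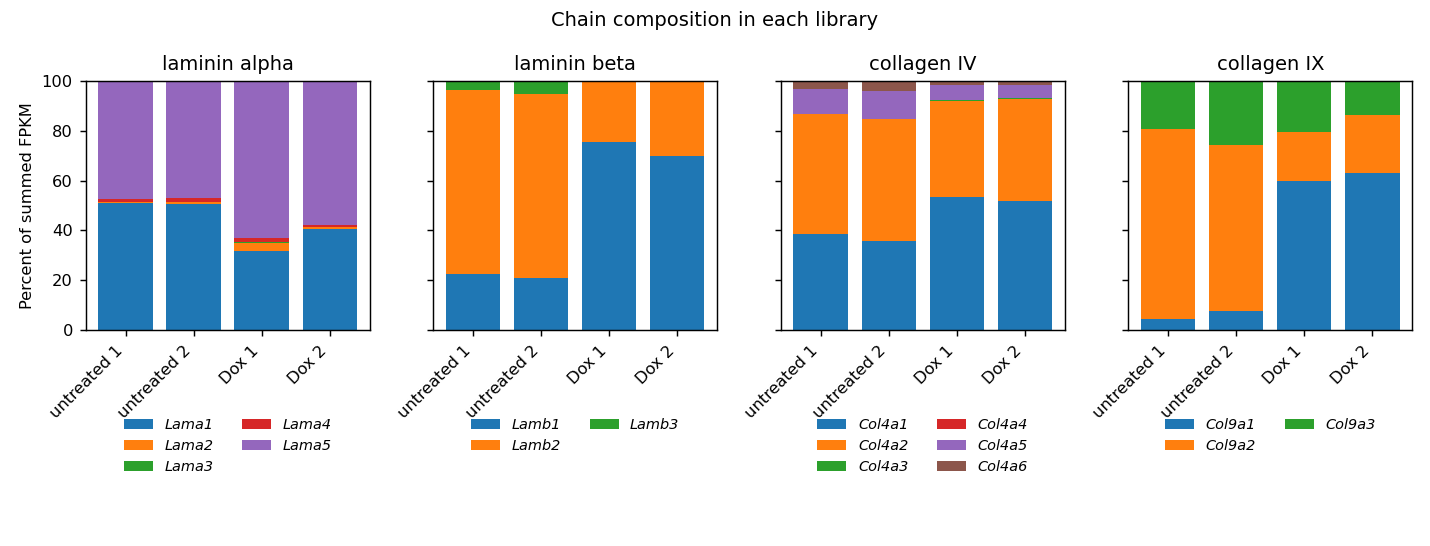
Share of the summed FPKM (vertical, percent) taken by each chain of the laminin alpha, laminin beta, collagen IV and collagen IX classes in each library (horizontal). Lamb1 goes from 22.6% and 21.1% of the beta chains to 75.3% and 69.8%, and Col9a1 from 4.34% and 7.84% of collagen IX to 60.0% and 63.1%.

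Collagen IV, the network collagen of basement membranes, is built mostly from the alpha 1 and alpha 2 chains, and its common trimer holds more alpha 1 than alpha 2. Col4a1 was at 28.44 and 23.79 FPKM untreated and at 56.19 and 61.53 FPKM with Dox. It rose 2.25-fold, from 26.1 ± 3.29 to 58.9 ± 3.78 FPKM (SD, n = 2 each; log2 fold change 1.15, SE 0.105, adjusted p = 0.00248, limma). Col4a2 was at 35.83 and 32.26 FPKM untreated and at 40.41 and 49.17 FPKM with Dox. Its groups also did not overlap, but the difference did not pass (log2 fold change 0.38, SE 0.113, adjusted p = 0.113, limma).

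These genes lie head to head on chromosome 8, and their annotated first exons overlap by 22 nt. The ratio of Col4a1 to Col4a2 was 0.794 and 0.737 in the untreated libraries and 1.39 and 1.25 with Dox. Col4a1 was thus the less abundant of the pair without Dox and the more abundant with it, a difference of 0.77 in the log2 ratio. The other head-to-head pair with tested genes, Col4a5 and Col4a6 on chromosome X, which encode chains of more specialised basement membranes, had log2 fold changes of -0.17 and -0.31 with neither past the threshold (adjusted p = 0.324 and 0.196, limma). Col4a3 and Col4a4, the kidney and lung chains, did not exceed 0.08 FPKM.

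Nidogens bridge laminin and collagen IV. Nid2 was at 17.03 and 16.02 FPKM untreated and at 9.24 and 7.77 FPKM with Dox. It fell from 16.5 ± 0.714 to 8.51 ± 1.04 FPKM (SD, n = 2 each; log2 fold change -0.89, SE 0.107, adjusted p = 0.0065, limma). Without untreated replicate 1 its adjusted p was 0.0602. Of its annotated exon bases 8.45% overlap Rtraf on the opposite strand, and whether counting used strand is not given in the sources used here. Nid1 was far lower, at 1.79 and 1.77 FPKM untreated and 2.89 and 2.99 FPKM with Dox. That difference was in the opposite direction, with no overlap and close replicates, but it missed the threshold (log2 fold change 0.50, SE 0.115, adjusted p = 0.0574, limma).

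The proteoglycans of the basement membrane were abundant and showed no change past the threshold. Agrin (Agrn), which carries heparan sulfate and binds laminin, was at 64.14 and 60.3 FPKM untreated and 55.28 and 60.64 FPKM with Dox. Hspg2, which encodes perlecan, was at 19.24 and 12.96 FPKM untreated and 15.04 and 17.81 FPKM with Dox. Col18a1, whose collagen XVIII chain carries heparan sulfate and releases endostatin, was at 79.47 and 69.72 FPKM untreated and 75.45 and 85.66 FPKM with Dox, the second highest matrix gene after Sparc by the mean over the 4 libraries, although Col2a1 had the higher mean with Dox (81.6 against 80.6 FPKM). All 3 had overlapping groups, with log2 fold changes of -0.10, 0.05 and 0.11 and adjusted p of 0.494, 0.908 and 0.564 in limma. The sign for Hspg2 was negative without untreated replicate 2 or without Dox replicate 2. The other multiplexin, Col15a1, stayed below 1 FPKM.

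**Figure D3:**
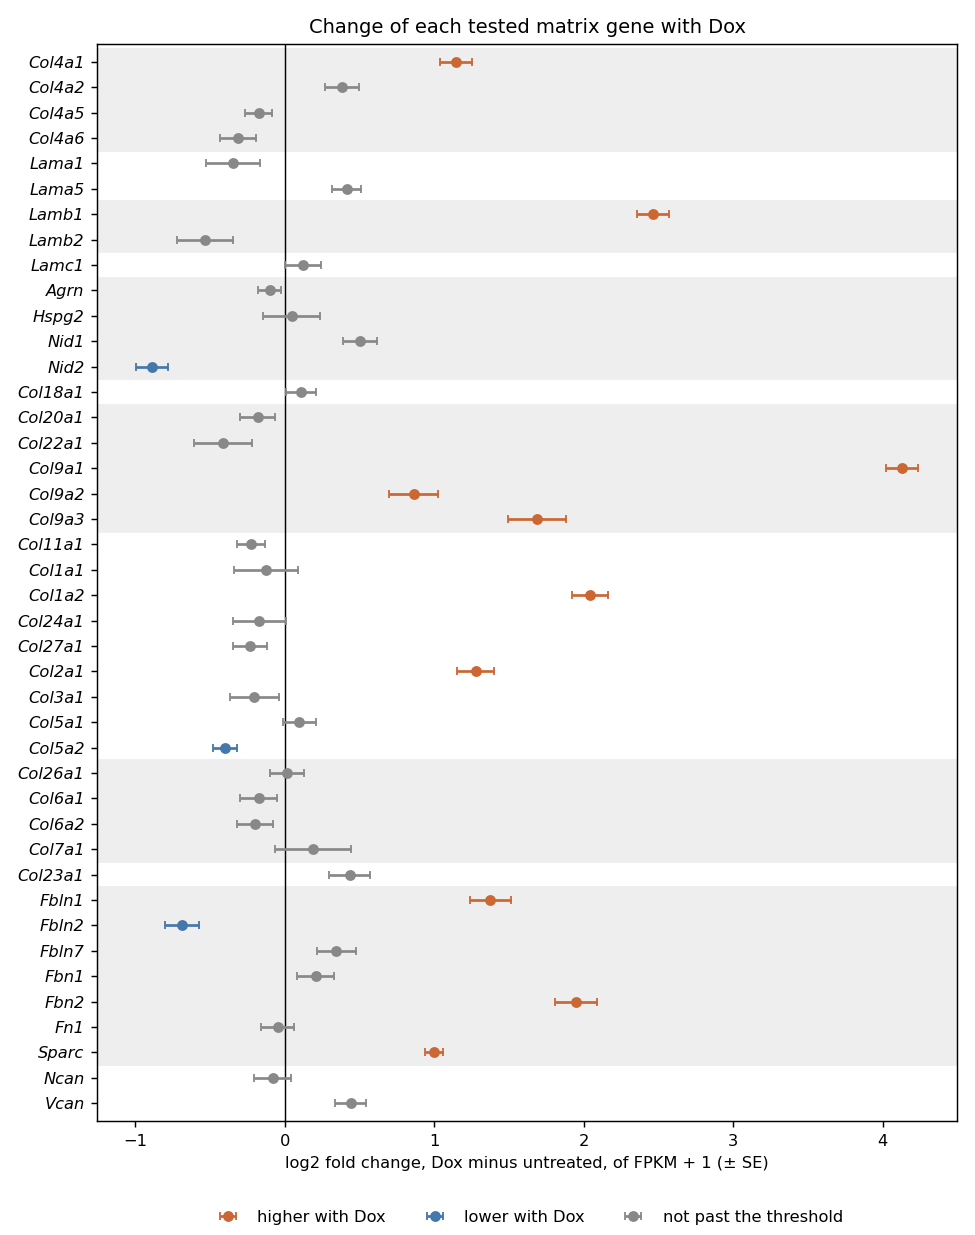
Log2 fold change of FPKM + 1, Dox minus untreated (horizontal, bars are SE from limma), for the 42 tested matrix genes (vertical); orange genes were higher, blue genes lower and grey genes not past an adjusted p of 0.05. The 10 higher genes reach 4.13 for Col9a1, the 3 lower genes go to -0.89 for Nid2, and the 29 others lie between -0.53 and 0.50.

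Collagen IX decorates the surface of collagen II fibrils in cartilage and vitreous, and all 3 of its chain genes were higher with Dox. Col9a1 (ENSMUSG00000026147, chromosome 1, 24177610 to 24252684) was at 0.25 and 0.37 FPKM untreated and at 21.4 and 22.38 FPKM with Dox. This was the largest fold change of the matrix genes, from 0.310 ± 0.0849 to 21.9 ± 0.693 FPKM (SD, n = 2 each), 70.6-fold on the FPKM scale (log2 fold change of FPKM + 1 of 4.13, SE 0.109, adjusted p = 6.96e-05, limma). The gene-level value does not say which of the 2 starts shown above was used.

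Col9a3 was at 1.1 and 1.21 FPKM untreated and 7.31 and 4.8 FPKM with Dox (log2 fold change 1.69, SE 0.192, adjusted p = 0.00539, limma). Col9a2 was at 4.41 and 3.14 FPKM untreated and 6.98 and 8.28 FPKM with Dox (log2 fold change 0.86, SE 0.164, adjusted p = 0.0327, limma). In both genes the groups did not overlap, but the call for Col9a2 was lost without untreated replicate 2 (adjusted p = 0.122), without Dox replicate 1 (0.114) and without Dox replicate 2 (0.189) in limma. Without Dox, Col9a2 took 76.6% and 66.5% of the collagen IX FPKM and Col9a1 took 4.34% and 7.84%. With Dox, Col9a1 took 60.0% and 63.1%, and the class sum was 6.79-fold higher.

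No other fibril-associated collagen passed the threshold. Col20a1 and Col22a1 were tested and did not pass (log2 fold changes -0.18 and -0.41, adjusted p = 0.418 and 0.268, limma). Col12a1, Col14a1 and Col19a1 stayed at or below 0.2 FPKM, and Col16a1 ranged from 0.66 to 1.12 FPKM.

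Among the fibrillar collagens, Col2a1, the chain of collagen II, was the most abundant. It was at 33.79 and 31.93 FPKM untreated and at 71.8 and 91.37 FPKM with Dox, a rise from 32.9 ± 1.32 to 81.6 ± 13.8 FPKM (SD, n = 2 each; log2 fold change 1.28, SE 0.123, adjusted p = 0.00285, limma). Collagen II fibrils also contain collagen XI, and Col11a1 was at 9.37 and 8.51 FPKM untreated and 7.62 and 7.38 FPKM with Dox (log2 fold change -0.22, adjusted p = 0.230, limma). Col11a2 lay below the level for testing at a mean of 0.91 FPKM.

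Collagen I is a trimer with more alpha 1 than alpha 2 chains, and its genes differed. Col1a2 was at 2.46 and 1.93 FPKM untreated and at 12.21 and 12.02 FPKM with Dox, 5.52-fold higher (log2 fold change 2.04, SE 0.120, adjusted p = 5.54e-04, limma). Col1a1 was at 1.72 and 0.96 FPKM untreated and 1.37 and 0.89 FPKM with Dox, with overlapping groups (log2 fold change -0.13, adjusted p = 0.778, limma). The ratio of Col1a2 to Col1a1 was 1.43 and 2.01 without Dox and 8.91 and 13.5 with it.

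Col5a2, a chain of collagen V that regulates fibril diameter, was at 17.88 and 18.32 FPKM untreated and at 13.08 and 13.91 FPKM with Dox. It was lower by 1.34-fold (log2 fold change -0.40, SE 0.0786, adjusted p = 0.0366, limma), and this call was lost whichever library was left out (adjusted p = 0.114 to 0.225 in limma). Its partner Col5a1 was at 6.93 and 6.77 against 6.82 and 8.01 FPKM. Col3a1, which lies next to Col5a2 on chromosome 1, and Col24a1 and Col27a1 did not pass either, with log2 fold changes of -0.20, -0.17 and -0.23. Col5a3 stayed at or below 0.34 FPKM.

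The remaining collagens were low. Of the network and filament forming collagens, Col6a1, Col6a2, Col7a1 and Col26a1 were tested, and their log2 fold changes lay between -0.20 and 0.19 with none past the threshold. Of the transmembrane collagens Col23a1 alone was tested, at 1.3 and 1.15 FPKM untreated and 1.8 and 2.22 FPKM with Dox (log2 fold change 0.43, adjusted p = 0.135, limma). Col6a3, Col6a4, Col6a5, Col6a6, Col8a1, Col8a2, Col10a1, Col13a1, Col17a1, Col25a1 and Col28a1 lay below the level for testing. Col6a3, a chain of collagen VI, was at 0.74 and 1.22 FPKM untreated and at 0.27 and 0.21 FPKM with Dox.

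Sparc, which encodes a secreted glycoprotein that binds collagen and shapes its assembly, was the most abundant matrix gene. It was at 88.29 and 90.31 FPKM untreated and at 181.59 and 177.37 FPKM with Dox. The replicates were close, and the rise from 89.3 ± 1.43 to 179.5 ± 2.98 FPKM (SD, n = 2 each) was 2.01-fold (log2 fold change 1.00, SE 0.0623, adjusted p = 6.70e-04, limma). Fibronectin (Fn1), a cell-adhesive glycoprotein of early embryonic matrix, was at 42.15 and 39.04 FPKM untreated and 35.36 and 43.45 FPKM with Dox. Its Dox libraries lay on either side of both untreated ones (log2 fold change -0.05, adjusted p = 0.842, limma), and the sign turned positive without untreated replicate 1 or without Dox replicate 1.

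The fibrillins form microfibrils, and only one of the pair passed. Fbn2, the fibrillin of fetal microfibrils, was at 7.26 and 5.95 FPKM untreated and at 25.34 and 31.48 FPKM with Dox, 4.30-fold higher (log2 fold change 1.95, SE 0.140, adjusted p = 0.00103, limma). Fbn1 was at 4.62 and 4.36 FPKM untreated and 4.83 and 5.89 FPKM with Dox (log2 fold change 0.21, adjusted p = 0.381, limma). Of the exon bases of Fbn1, 20.1% overlap Gm9913 on the opposite strand, the only matrix gene with over 10%. The ratio of Fbn2 to Fbn1 was 1.57 and 1.36 without Dox and 5.25 and 5.34 with it.

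Fibulins are glycoproteins that bind laminin, nidogen and elastic fibres, and Fbln1 and Fbln2 changed in opposite directions. Fbln1 was at 11.48 and 8.85 FPKM untreated and at 25.99 and 29.66 FPKM with Dox, 2.74-fold higher (log2 fold change 1.38, SE 0.138, adjusted p = 0.00328, limma). Fbln2 was at 3.4 and 3.48 FPKM untreated and at 1.71 and 1.81 FPKM with Dox, 1.95-fold lower (log2 fold change -0.69, SE 0.114, adjusted p = 0.0205, limma). The ratio of Fbln1 to Fbln2 was 3.38 and 2.54 without Dox and 15.2 and 16.4 with it. Without Dox replicate 2 the adjusted p of Fbln1 was 0.0537, and the call for Fbln2 was lost whichever library was left out (adjusted p = 0.0899 to 0.106 in limma). Fbln7 did not pass (log2 fold change 0.35, adjusted p = 0.194, limma), and Fbln5 lay below the level for testing at 0.27 and 0.15 FPKM untreated and 0.53 and 0.46 FPKM with Dox.

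The lecticans are hyaluronan-binding chondroitin sulfate proteoglycans of the nervous system. Vcan, which encodes versican, was at 9.67 and 9.82 FPKM untreated and 12.53 and 14.74 FPKM with Dox, which did not pass (log2 fold change 0.44, SE 0.103, adjusted p = 0.0618, limma). Ncan, encoding neurocan, was at 2.21 and 2.05 FPKM untreated and 1.84 and 2.08 FPKM with Dox. Bcan did not exceed 0.31 FPKM, and Acan, the aggrecan gene of cartilage, did not exceed 0.03 FPKM. Versican took 79.9% to 86.4% of the lectican sum in the 4 libraries.

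Genes that act on the matrix were read from related lists. The counts that follow stand against 4.44% higher and 4.87% lower among all tested genes. Of 16 tested matrix receptors, 1 was higher and 2 lower: Bcam, a receptor for laminin alpha 5, had a log2 fold change of 1.28, Itgb5, a subunit of a vitronectin receptor, of -1.54, and Itga6, a subunit of laminin receptors, of -0.55 (adjusted p = 8.86e-04, 0.0014 and 0.0109, limma). The call for Itga6 was lost in 3 of the 4 fits that leave out 1 library, all but the one without Dox replicate 2. Itgb1, the subunit shared by most collagen and laminin receptors, was the most abundant receptor at a mean of 118.7 FPKM and did not pass. Of 21 tested genes of collagen synthesis and crosslinking, the prolyl hydroxylase gene P4ha1 (log2 fold change 0.37) and the lysyl oxidase gene Loxl3 (0.69) were higher and the procollagen protease gene Adamts3 (-0.82) lower, with adjusted p of 0.0257, 0.0156 and 0.0163 in limma. All 3 calls were lost whichever library was left out (adjusted p = 0.0596 to 0.175 in limma), and Adamts3 reached the level for testing through the untreated libraries alone. The other 18 tested genes of that list, among them the abundant folding enzyme gene Ppib at a mean of 331.9 FPKM, did not pass. At an unadjusted p under 0.05 in limma, 7 genes of that list were higher and 1 lower.

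Against the same 4.44% and 4.87% of all tested genes, 3 of 14 tested genes of matrix turnover were higher and 0 lower in limma, and at an unadjusted p under 0.05 the counts were 5 and 2. They were Mmp2, the gelatinase A gene, at 18.08 and 17.46 FPKM untreated and 29.11 and 31.9 FPKM with Dox, Mmp14, whose membrane protease activates it (log2 fold change 0.93), and Reck, a membrane inhibitor of both (1.06). Their adjusted p was 0.00412, 0.00602 and 0.00543 in limma, and without Dox replicate 2 Mmp14 and Reck missed the threshold (0.0506 and 0.0536). Of 24 other matrix genes, 4 were higher and 4 lower, and without Dox replicate 2 the counts were 0 and 2. Vtn, encoding vitronectin, fell from 27.33 and 31.49 to 2.72 and 3.27 FPKM (log2 fold change -2.93, adjusted p = 1.60e-04, limma), Thbs1, encoding thrombospondin 1, went from 38.52 and 34.58 to 19.19 and 16.32 FPKM (adjusted p = 0.00385, limma), and the fibulin-family gene Efemp1 had a log2 fold change of 1.39 (adjusted p = 0.00643, limma).

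**Figure D4:**
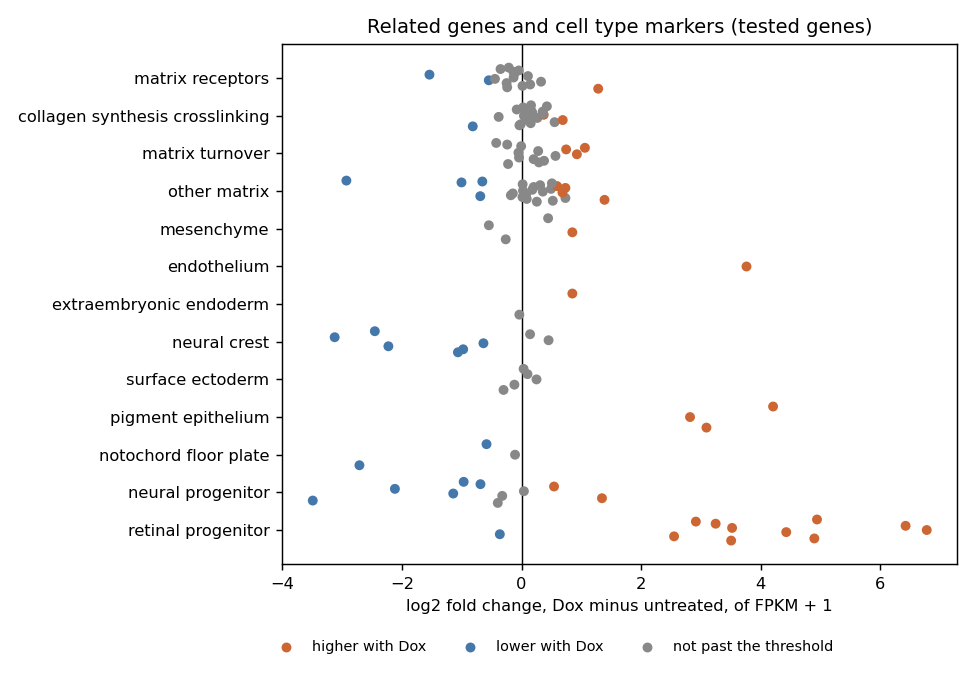
Log2 fold change of FPKM + 1, Dox minus untreated (horizontal), of each tested gene of the related lists and cell type marker lists (vertical); orange is higher, blue lower and grey not past the threshold. Neural crest markers lie to the left with a call for 6 of 8 genes, and retinal progenitor genes to the right for 10 of 11. Collagen synthesis and matrix turnover genes lie on both sides of 0, with medians of 0.15 and 0.24.

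Markers of other cell types that make matrix moved with the groups in several lists, and their part in the matrix changes was not tested. A marker that reached the level for testing only through the group where it is high had to differ, so the counts of these lists describe the libraries and support nothing. Neural crest markers fell for 6 of 8 genes, of which 4 (Sox10, Foxd3, Tfap2b and Erbb3) were tested through the untreated libraries alone. The call for Ets1 was lost whichever library was left out. The list was led by Sox10 at 12.79 and 13.35 FPKM untreated and 0.82 and 0.43 FPKM with Dox, and its summed FPKM went from 43.1 and 44.2 to 13.1 and 14.2. Of 8 pigment epithelium markers 3 were tested and higher, Mitf and Dct through the Dox libraries alone, with Pmel from 1.2 FPKM in both untreated libraries to 39.27 and 39.93 FPKM, and a sum of 2.48 and 2.62 against 61.4 and 62.0 FPKM. The untested pigment markers were low. Tyrp1 (0.09 and 0.09 against 0.62 and 0.64 FPKM) and Tyr (0 and 0 against 0.11 and 0.01) were higher in both Dox libraries. The groups of Rpe65, Mlana and Slc45a2 overlapped. Retinal progenitor genes rose for 10 of 11 tested, 6 of them tested through the Dox libraries alone, and Otx2 fell, a call lost whichever library was left out, with sums of 220.3 and 225.8 against 1046 and 1207 FPKM.

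General neural progenitor genes went both ways, 2 higher (Hes1 and Sox2) and 5 lower, Fabp7 and Sox1 foremost. The call for Sox2 was lost whichever library was left out, and that for Sox3 when either Dox library was left out. Of the notochord and floor plate list, Nog was lower (adjusted p = 0.0330, limma), at 11.45 and 9.57 FPKM untreated and 6.7 and 6.59 FPKM with Dox, a call lost whichever library was left out. Of 14 mesenchyme markers, Pdgfra rose (1 and 1.2 against 2.82 and 2.74 FPKM). Its call was lost in 3 of the 4 fits with 1 library left out, all but the one without untreated replicate 2. On that list 3 tested genes did not pass and 9 were below 1 FPKM in all 4 libraries, Dcn and Lum among them. Prrx1 (3.49 and 3.23 against 2.4 and 1.62 FPKM), Foxc1, Foxc2, Postn, Thy1, Dcn and Lum were lower in both Dox libraries. Twist1, Twist2, Pdgfrb and Meox1 were higher in both. The groups of Acta2 and Tcf21 overlapped. The summed mesenchyme level was 88.4 and 91.6 FPKM untreated and 65.6 and 90.8 FPKM with Dox, most of it Acta2. Of 9 endothelial markers Kdr alone was tested, at 0.22 and 0.25 FPKM untreated and 13.91 and 17.63 FPKM with Dox. It reached the level for testing through the Dox libraries alone. The other endothelial markers did not exceed 0.89 FPKM. Cdh5 (0.05 and 0.01 against 0.43 and 0.61 FPKM) and Tek (0.02 and 0.08 against 0.2 and 0.28) were higher in both Dox libraries. So was Flt1 (0.04 and 0.05 against 0.22 and 0.2 FPKM). Esam was lower in both (0.83 and 0.72 against 0.68 and 0.6 FPKM). The groups of Pecam1, Tie1, Emcn and Cldn5 overlapped. The endothelial sum, mostly Kdr, was 1.75 and 1.97 against 16.1 and 20.4 FPKM. Of 11 markers of extraembryonic endoderm, a rich source of laminin and collagen IV, 9 were below 1 FPKM in all 4 libraries, Dab2 did not pass and Pdgfra, also on the mesenchyme list, was higher. The sum was 10.6 and 10.7 against 12.8 and 13.0 FPKM. Gata4 (0.01 and 0.02 against 0.32 and 0.26 FPKM) and Gata6 (0.02 and 0.05 against 0.06 and 0.2) were higher in both Dox libraries. Sox17 was too (0.03 and 0.17 against 0.36 and 0.39 FPKM). Foxa2 was lower in both (0.36 and 0.18 against 0.15 and 0.11 FPKM). The groups of Sox7, Afp, Ttr, Apoa1 and Thbd overlapped. All of these were low and were not tested. Surface ectoderm markers had 0 of 5 tested genes past the threshold in limma and 1 at an unadjusted p under 0.05, with sums of 63.6 and 72.6 against 66.6 and 76.8 FPKM.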

How the data were processed

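The 4 libraries, 2 untreated and 2 Dox, hold poly(A)-selected RNA sequenced as paired ends. The authors deposited FPKM values per gene, one column per library, rounded to 2 decimals. STAR, Cuffdiff and the build mm10 are named, with no version, per the submitters' processing notes. Annotation release and use of strand are not given in the sources used here. Count models do not suit this unit and were left aside. Values were taken as log2(FPKM + 1), which understates the change of low genes. Genes averaging at least 1 FPKM (13931) entered limma 3.58.1 (R 4.3.3; lmFit, eBayes with an intensity trend, 4 libraries, no covariate, two-sided, Benjamini-Hochberg over all tested genes, threshold 0.05). The prior had 3.5 degrees of freedom. A simulation of this comparison on 13931 genes with 200 changed recovered 73% of 2-fold and 95% of 4-fold changes, 0 in the wrong direction. The changed genes were drawn only from those averaging above about 5 FPKM, so recovery below that level was not measured. Of the calls in it, 5.62% fell on unchanged genes. With no gene changed, 1 was called.

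Depth was fitted from low values of single-transcript genes (Python 3.11.15, numpy 2.4.6): 77.2% to 79.6% came out within 0.1 of a whole fragment, against 20% by chance. Gene positions and exon overlaps were read from GENCODE M21 (GRCm38, the same assembly as mm10), which matched all 71 genes. RefSeq promoter windows matched 53 of the 71 and 8 of the 13 called genes.

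The rule was to name all called matrix genes, 14 core genes whatever their values, and up to 3 called genes per related list. Other matrix genes are named to account for the list (some genes are not reported here), and other markers were named after their values were seen. Members and lists were chosen with earlier results of these data known. Alternatives were 2 other pseudocounts, no filter or 5 FPKM, TPM, median centring, quantile normalization, no trend, robust estimation, a replicate block, and each library left out.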

Additional observations from a re-analysis of the deposited data

Results flagged for a closer look

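Of the 29 matrix genes below the level for testing, 14 had groups that did not overlap, 6 higher and 8 lower with Dox. Over the 13601 genes of the table that lie below that level with a value above 0, 30.7% did not overlap, 1918 higher and 2256 lower with Dox. The 8 lower genes were Lamb3, Lamc3, Col5a3, Col6a3, Col6a4, Col10a1, Col16a1 and Col28a1. Of the 6 higher genes, 5 were above the floor of 3 fragments in both Dox libraries, and Acan was not. Fbln5, a fibulin of elastic fibres, was at 0.27 and 0.15 FPKM untreated and 0.53 and 0.46 FPKM with Dox (mean 0.495). Col8a2, a chain of the collagen of Descemet's membrane in the cornea, was at 0.17 and 0.14 against 0.45 and 0.28 FPKM (mean 0.365). Lama2, the laminin alpha 2 chain of muscle and nerve, was at 0.05 and 0.12 against 0.52 and 0.14 FPKM (mean 0.33), and its Dox libraries differed more from each other than the groups did. Col8a1, the partner of Col8a2, was at 0.11 and 0.04 against 0.33 and 0.32 FPKM (mean 0.325). Col13a1, a transmembrane collagen, was at 0.16 and 0.14 against 0.31 and 0.25 FPKM (mean 0.28). With no filter on low values, none of these 5 passed in limma, and 4 had an unadjusted p under 0.05; the adjusted p of Col8a1 was 0.0875 and that of Fbln5 0.170.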

How the results depend on the processing

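Of the 13 called matrix genes, 7 kept their call in every alternative in which they were tested: Lamb1, Col4a1, Col9a1, Col2a1, Col1a2, Fbn2 and Sparc. The other 6 (Fbln1, Nid2, Col5a2, Col9a3, Col9a2 and Fbln2) lost it in at least one, and none of the 13 changed sign. Across all alternatives 7 to 13 matrix genes were called higher and 0 to 3 lower. Without a filter, 1 was lower (Nid2, Col5a2 and Fbln2 lost the call and Lamb3 was called), and all genes gave 336 higher and 409 lower, against 619 and 678. Raising the minimum to 5 FPKM, and so testing fewer genes, gave for all genes 408 higher and 413 lower, and Col9a3 and Fbln2 were not tested. Leaving out each library in turn, with the lone library assumed to vary like the others, gave 8 to 10 matrix genes higher and 0 to 2 lower, and 262 to 320 genes higher and 331 to 377 lower overall; these fits have fewer samples. Across these fits the log2 fold change of Fn1 ran from -0.19 to 0.097 and that of Hspg2 from -0.22 to 0.32. Fn1 was at 0.0058 without untreated replicate 1 and 0.097 without Dox replicate 1, and Hspg2 at -0.22 without untreated replicate 2 and -0.068 without Dox replicate 2; neither had passed. Lama5, Vcan and Nid1 passed under robust estimation and quantile normalization (adjusted p = 0.0425 to 0.0498 in limma), Lama5 and Vcan also with median centring (0.0431 and 0.0452), and Nid1 also with no intensity trend (0.0209). The cause was not tested. In the fit with a replicate block, 10 matrix genes were higher and 2 lower, Col5a2 having lost its call (adjusted p = 0.0885 in limma). Deviations of same-numbered libraries from their group means correlated at -0.043, so a shared number is no evidence of pairing. Under every scaling the median over all genes stayed within 0.016 of 0 on the log2 scale. Of 364 counts for the related lists, 301 stayed within 1.5 times and 63 did not. The SEs from limma rest on the spread between libraries, and 2 libraries a group limit the precision.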
